A study of Mus musculus with 2 samples.

Results

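Intergenic open sites near genes are stretches of accessible DNA that lie outside every annotated gene, away from start sites, and within 50 kb of the start of a protein-coding gene. In erythroblasts of the mouse, which are red cell precursors that still hold a nucleus, 2187 of the 16180 open intervals found in both replicates were of this kind (13.5%). They were chosen by position and overlap alone. An interval of replicate 1 was kept when it overlapped an interval of replicate 2 by at least 1 bp, and when its strongest summit lay outside all GENCODE M21 gene bodies. The summit also had to lie over 1 kb from any transcription start site (TSS) and at most 50 kb from the nearest protein-coding TSS. The other shared intervals were 392 intergenic sites beyond 50 kb, 3408 in introns, 482 in exons and 9711 within 1 kb of a TSS, called promoter sites here.

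Chromatin was profiled by ATAC-seq, in which a transposase places sequencing adapters into accessible DNA. The single group held erythroblast primary cells of male C57BL/6J adults aged 5 to 6 weeks, with no genetic change or treatment named in the labels. Its 2 biological replicates of 50000 cells each came from separate biosamples under one donor identifier, and the sources used here do not give how independent they are. The label of replicate 2 names 2 sequencing instruments, and that of replicate 1 names none. With 1 group there was no contrast between conditions, and every value below is a description: the value of each replicate, the mean ± SD over 2 replicates, or a share with its 95% Wilson interval, which covers counting error only.

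Open intergenic sites commonly mark enhancers, which raise transcription of genes at a distance, or insulators, where the zinc finger protein CTCF binds and helps to form the loops that bound regulatory domains. In red cell precursors the factor GATA1 binds GATA sequences, often beside a partial E-box bound by TAL1. KLF1 binds CACC-type sequences, and NFE2 binds a TGA-type element that it shares with the AP-1 family. The locus control region upstream of the beta globin genes is the classic example, a row of sites, each hypersensitive to DNase I, that together drive globin expression.

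The windows below show 75 bp to each side of the replicate 1 summit, on the plus strand of GRCm38.p6. They were chosen because they carry the sequence features that recur in the results: sites of the beta globin locus named by RefSeq, sites at erythroid genes, the strongest sites with the composite, with CTCF letters, with NFE2 and AP-1 letters and with at least 3 GATA matches, and the site of best rank. Capitals mark matches to the motif named for each line. A match on the minus strand appears as its reverse complement, so that AGATAA reads TTATCT.
Hbb-y 5'HS1 (composite): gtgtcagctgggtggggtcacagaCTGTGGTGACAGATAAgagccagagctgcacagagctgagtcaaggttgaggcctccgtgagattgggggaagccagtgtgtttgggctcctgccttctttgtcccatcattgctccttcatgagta
Hbb-y 5'HS2 (NFE2): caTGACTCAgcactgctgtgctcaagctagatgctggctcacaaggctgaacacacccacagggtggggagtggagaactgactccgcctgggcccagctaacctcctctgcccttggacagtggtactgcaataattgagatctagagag
Hbb-y 5'HS3 (GATA): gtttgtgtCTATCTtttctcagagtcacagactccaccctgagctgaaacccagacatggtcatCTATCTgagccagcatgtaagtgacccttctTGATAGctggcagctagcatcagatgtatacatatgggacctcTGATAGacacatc
Olfr67 3'HS1 (CTCF): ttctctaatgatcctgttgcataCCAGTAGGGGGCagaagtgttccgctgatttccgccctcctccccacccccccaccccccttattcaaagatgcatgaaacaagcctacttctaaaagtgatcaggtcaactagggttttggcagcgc
Myb upstream (GATA): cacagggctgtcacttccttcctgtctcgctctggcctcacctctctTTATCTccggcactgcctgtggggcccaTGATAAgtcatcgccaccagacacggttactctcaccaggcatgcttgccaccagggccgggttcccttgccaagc
Jak2 upstream (GATA): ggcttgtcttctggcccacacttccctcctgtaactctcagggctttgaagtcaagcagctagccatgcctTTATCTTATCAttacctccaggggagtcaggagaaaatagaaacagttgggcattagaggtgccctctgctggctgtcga
Hmox1 upstream (NFE2): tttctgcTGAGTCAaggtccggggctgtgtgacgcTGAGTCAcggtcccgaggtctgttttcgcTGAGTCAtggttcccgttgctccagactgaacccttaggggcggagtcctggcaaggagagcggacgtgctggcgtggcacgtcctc
Rhobtb3 downstream (composite): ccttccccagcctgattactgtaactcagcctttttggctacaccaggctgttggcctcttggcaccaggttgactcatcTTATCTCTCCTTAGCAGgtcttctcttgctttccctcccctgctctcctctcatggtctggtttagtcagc
Sfpq upstream (CTCF): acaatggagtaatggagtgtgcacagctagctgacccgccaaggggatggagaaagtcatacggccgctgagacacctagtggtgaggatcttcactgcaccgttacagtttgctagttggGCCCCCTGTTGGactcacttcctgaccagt
Frs2 upstream (GATA): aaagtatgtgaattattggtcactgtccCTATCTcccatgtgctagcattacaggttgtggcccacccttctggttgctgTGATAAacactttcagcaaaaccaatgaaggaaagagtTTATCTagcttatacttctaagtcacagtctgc
Ptprj upstream (NFE2): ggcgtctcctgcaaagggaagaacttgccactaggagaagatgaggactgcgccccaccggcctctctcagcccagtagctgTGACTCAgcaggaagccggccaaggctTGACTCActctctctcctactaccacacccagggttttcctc
Abcb11 upstream (no match): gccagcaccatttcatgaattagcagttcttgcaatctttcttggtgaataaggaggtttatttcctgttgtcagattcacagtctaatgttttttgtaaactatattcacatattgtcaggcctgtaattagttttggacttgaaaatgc

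These windows lie at chr7:103859228-103859378, chr7:103861092-103861242 and chr7:103865829-103865979 for the sites 5'HS1, 5'HS2 and 5'HS3 upstream of Hbb-y, and at chr7:103793071-103793221 for 3'HS1 on the far side of the locus. The Myb window is chr10:21196710-21196860, the Jak2 window chr19:29203474-29203624 and the Hmox1 window chr8:75083944-75084094. The Rhobtb3 window is chr13:75865921-75866071, the Sfpq window chr4:127015703-127015853, the Frs2 window chr10:117166919-117167069, the Ptprj window chr2:90612310-90612460 and the Abcb11 window chr2:69355525-69355675. All are intergenic in GENCODE M21, and a site is named after the gene with the nearest protein-coding TSS, which is a position and not a statement that the site acts on that gene.

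The thresholded lists held 17766 intervals in replicate 1 and 18826 in replicate 2 on chromosomes 1 to 19 and X, without read counts, so library depth is unknown. The cell label was checked against promoter openness, a gene being called open when each replicate had an interval within 1 kb of one of its TSSs. By this rule, 41.7% of all protein-coding genes were open. Of 12 erythroblast markers, 11 were open, the exception being Alas2. No promoter was open among markers of B cells (6), T and NK cells (6), granulocytes and monocytes (8), hepatocytes (5) or neurons (5), while 1 of 6 macrophage and 3 of 7 megakaryocyte and platelet markers were open. The megakaryocyte and platelet share, 42.9%, was near that of all genes. Of all 21755 protein-coding genes, 7.39% were the nearest gene of an intergenic site within 50 kb. Against that background, 9 of the 12 erythroblast markers had such a site (Wilson interval 46.8% to 91.1%). Among the other markers, 1 of T and NK cells (Klrb1c) and 1 of megakaryocytes (Gp9) had one, and none of the rest did.

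Most of these sites recurred between replicates within a few bases and with nearly the same enrichment. Of the 2570 intervals of replicate 1 that met the position rule, 85.1% overlapped replicate 2 (Wilson interval 83.7% to 86.4%), and of the 2777 of replicate 2, 78.7% overlapped replicate 1 (77.2% to 80.2%). Promoter intervals were shared in 95.2% and 92.6%, and intron intervals in 85.8% and 77.8%. Of the 383 intergenic intervals of replicate 1 without a partner, 358 overlapped the longer, less strict list of replicate 2 and 25 overlapped neither list of it. In replicate 2, 524 of 591 were found in the less strict list of replicate 1, and 67 in neither.

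Among the 2187 sites, the summits of the 2 replicates lay a median of 7 bp apart, and 2125 (97.2%) lay within 50 bp. The deposited enrichment, a fold of the summit over background given by the authors, differed by at most 1.2-fold between replicates at 1976 sites (90.4%) and by over 1.5-fold at 16. Across sites, its Spearman correlation between replicates was 0.929, with each site measured in the same 2 libraries. The summit of replicate 2 placed 2184 sites in the same class. In 38 sites, 2 neighbouring intervals of replicate 1 shared 1 interval of replicate 2 and so its value. The conservative list made from both replicates held 2185 of the sites, and their thresholded list all 2187. In the other classes, the conservative list held between 99.7% and 100% of sites. Only intervals that overlapped between replicates were kept, so the agreement in this paragraph follows in part from that rule.

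The sites were of moderate strength. Their median enrichment was 7.29 in replicate 1 and 7.44 in replicate 2 (7.36 ± 0.101, SD, n = 2). It was 8.23 ± 0.190 for intergenic sites beyond 50 kb, 7.06 ± 0.083 for introns, 6.85 ± 0.148 for exons and 9.19 ± 0.135 for promoters. The replicate values of these sites overlapped those of none of the 4 other classes. Enrichment among them ran between 2.27 and 38.5 in replicate 1 and between 2.35 and 39.0 in replicate 2, with the middle 50% between 5.80 and 9.05 and between 5.92 and 9.18. They were narrower than promoter sites, with median widths of 522 bp and 526 bp, against 816 bp and 815 bp. A single summit was called in 51.3% and 49.9% of them, and in 27.4% and 27.7% of promoter sites. Intron, exon and distant intergenic sites were close to them in both measures. Their median widths lay between 483.5 and 570 bp, and a single summit was called in 47.2% to 55.6%.

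Base composition set them apart from promoter sites and from the sequence beside them, but little from other sites away from starts. The median GC content of the summit window was 53.0%, against 64.2% at promoters, and 46.4% in windows 1000 bp to each side that overlapped no listed peak. Their ratio of observed to expected CpG was 0.275 and 0.276, against 0.817 and 0.820 at promoters. The summit fell in repeat-masked sequence at 7.82% and 8.69% of sites, against 34.2% and 34.5% of the flanking windows.

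Sites were denser near genes and their enrichment was higher farther away. Per Mb of sequence that the rule could reach, density was 9.57 sites at 1 to 2 kb from the nearest coding TSS, 6.65 at 2 to 5 kb, 7.22 at 5 to 10 kb and 5.44 at 10 to 20 kb. It was then 3.38 at 20 to 30 kb, 2.66 at 30 to 40 kb and 1.97 at 40 to 50 kb, against 0.457 for intergenic sequence beyond 50 kb. In replicate 1, median enrichment was 5.45 at 1 to 2 kb, 5.95 at 2 to 5 kb, 7.24 at 5 to 10 kb and 7.81 at 10 to 20 kb. Replicate 2 had 5.67, 6.18, 7.49 and 7.89 in the same bins. From 20 kb outward the medians lay between 7.91 and 8.03 in replicate 1 and between 7.91 and 8.36 in replicate 2. The lowest medians were thus those of the bins nearest to genes, in both replicates, while density had an exception at 2 to 5 kb, below that at 5 to 10 kb.

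**Figure D1:**
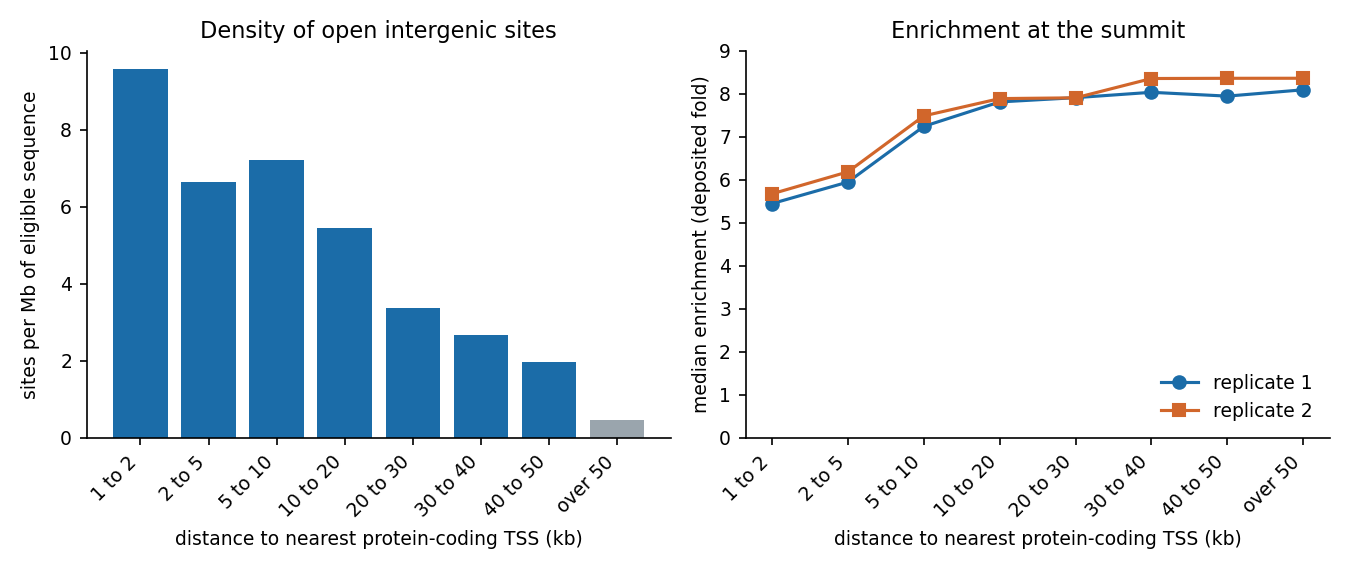
Left, number of open intergenic sites per Mb of eligible sequence (y axis) by distance to the nearest protein-coding TSS in kb (x axis); blue bars are the sites within 50 kb and the grey bar is intergenic sequence beyond it. Right, median deposited fold enrichment of the same sites in replicate 1 (circles) and replicate 2 (squares). Density was 9.57 sites per Mb at 1 to 2 kb and 1.97 at 40 to 50 kb, while median enrichment in replicate 1 was 5.45 and 7.95 in those bins.

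The median distance to a coding TSS was 10.9 kb. Upstream of the nearest gene lay 1450 sites (66.3%), and downstream lay 737. Relative to the eligible sequence on each side, pooled density was 4.85 sites per Mb upstream and 4.81 per Mb downstream. Within each distance range, density was lower upstream, by most at 1 to 2 kb (9.05 per Mb upstream over 131 sites, 14.9 downstream over 21 sites) and by least at 5 to 10 kb (7.20 upstream, 7.28 downstream). At 40 to 50 kb it was 1.79 per Mb upstream and 2.23 downstream. By chromosome, density was highest on chromosome 11, with 200 sites and 8.39 per Mb, and lowest on X, with 53 sites and 1.48 per Mb. The 53 X sites had median enrichments of 10.4 and 10.8, against 7.24 and 7.40 for the 2134 autosomal sites. Male cells carry a single X, and its part in these values was not tested. Another site of the same kind lay within 10 kb of 780 of the sites (35.7%).

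Values at the limits of the rule were as follows. Among the sites just past 1 kb from any TSS were those nearest to Hnrnpr (1.012 kb, enrichment 5.94 and 5.82) and Ankrd65 (1.013 kb, 6.88 and 6.93). Just short of it lay sites at Slc12a9 (0.992 kb, 8.77 and 8.70), Ptma (0.991 kb, 3.79 and 4.89) and Foxo3 (0.99 kb, 5.50 and 5.77). These distances are to the nearest TSS of any gene. The coding TSS lay 1.87 kb away for Ankrd65 and 4.80 kb away for Slc12a9. The farthest sites within 50 kb were at Ahctf1 (49.9 kb, 6.31 and 7.35), Grhl3 (49.9 kb, 10.9 and 10.8) and Chst14 (49.9 kb, 7.56 and 6.70). The nearest ones beyond it were at Ddx3x (50.1 kb, 13.3 and 14.5), Add3 (50.2 kb, 6.43 and 7.81) and Slc1a3 (50.6 kb, 7.91 and 7.10).

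GATA sequences, the target of GATA1, were the most frequent of the 11 motifs at the summits. The letters AGATAA or AGATAG, and TGATAA or TGATAG, were looked for in either orientation, up to 75 bp to each side of the summit, a description of letters and not of binding. At least 1 match stood at 899 sites in each replicate (41.1%, Wilson interval 39.1% to 43.2%), against 22.3% ± 0.248 (SD, n = 2) of flanking windows. The composite in which CTG is followed 7 or 8 bases later by AGATAA or TGATAA, a spacing known for TAL1 with GATA1 and a subset of the GATA matches, stood at 202 and 200 sites (9.19% ± 0.065), against 0.458% ± 0.036 of flanks. The composite stood at 14.3% of intergenic sites beyond 50 kb, 13.2% of intron, 9.54% of exon and 1.54% of promoter sites. The window downstream of Rhobtb3 shows it in reverse, and the 5'HS1 window shows it forward.

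CTCF letters were far more frequent at summits than in flanks. The core CCA, any 2 bases, AG, any 2 bases and GGC stood at 439 and 448 sites (20.3% ± 0.291), against 1.73% ± 0.036 of flanks. In the other classes the share was 9.06% ± 0.180 of intergenic sites beyond 50 kb, 13.1% ± 0.021 of intron sites, 15.9% ± 0.147 of exon sites and 3.88% ± 0.131 of promoter sites. For GATA letters these classes held 59.6% ± 0.180, 52.7% ± 0.145, 36.4% ± 0.440 and 12.9% ± 0.102. The intergenic sites within 50 kb thus had the highest CTCF share of the 5 classes in both replicates and a GATA share below those of introns and of distant intergenic sites. The 2 replicates scored nearly the same windows, so their spread does not measure the uncertainty of these differences. In replicate 1, the Wilson interval of the CTCF share was 18.4% to 21.8% for the intergenic sites within 50 kb. It overlaps that of exon sites, 13.0% to 19.5%. No test was run across sites.

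**Figure D2:**
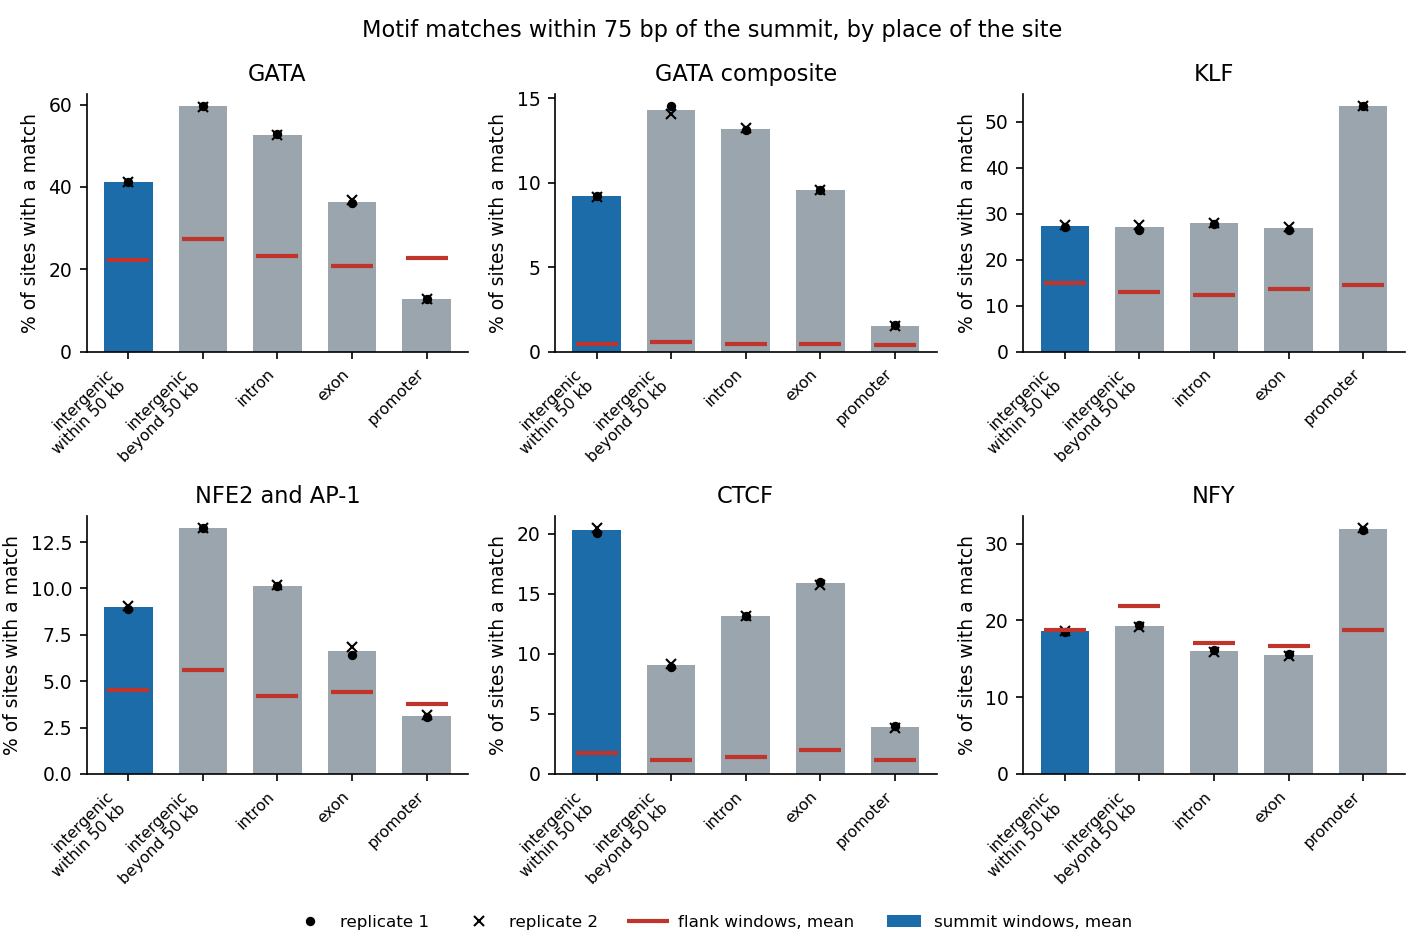
Share of sites with at least 1 match within 75 bp of the summit (y axis, percent) for 6 motifs, by class of site (x axis). Bars are means of 2 replicates, blue for intergenic sites within 50 kb and grey for the other classes; circles and crosses are replicates 1 and 2, and red lines are flanking windows 1000 bp away. CTCF matches stood at 20.3% of the intergenic sites within 50 kb, the highest bar of that panel, and GATA matches at 41.1%.

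Of the 11 motifs, KLF was second to GATA in frequency and ahead of CTCF. Its letters CCNCNCCC, a CACC-type core, stood at 592 and 602 sites (27.3% ± 0.323), against 15.0% ± 0.003 of flanks. The NFE2 and AP-1 letters TGANTCA stood at 195 and 198 sites (8.98% ± 0.097), against 4.53% ± 0.035 of flanks. The SP letters GGGCGGG stood at 8.12% ± 0.162, against 1.35% ± 0.036, and the ETS letters CCGGAAG at 2.31% ± 0.097, against 0.623% ± 0.018. The KLF, SP and ETS letters are rich in GC, as are the summit windows, and the part of base composition in such shares was not tested. KLF letters also stood at 27.0% of intergenic sites beyond 50 kb, 27.9% of intron, 26.9% of exon and 53.4% of promoter sites. The RUNX letters TGTGGTT (4.07%, against 4.86% of flanks), the STAT letters TTCNNNGAA (4.07%, against 4.13%) and the NFY letters CCAAT (18.6%, against 18.7%) were no more frequent at summits than beside them.

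GATA and CTCF matches were concentrated at the summit itself. In replicate 1, GATA matches occurred at 4.10 per kb within 60 bp of the summit and at 1.89 per kb beyond 400 bp, and in replicate 2 at 4.18 and 1.86 per kb. CTCF matches occurred at 1.70 per kb near the summit and at 0.139 per kb beyond 400 bp in replicate 1, and at 1.72 and 0.142 per kb in replicate 2. KLF matches showed a lower rise, with 3.03 and 3.00 per kb near the summit and 2.16 and 2.15 per kb beyond 400 bp. In replicate 2 the highest KLF bin was not at the summit but at -430 bp, with 3.43 per kb, against 3.38 per kb at 10 bp.

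**Figure D3:**
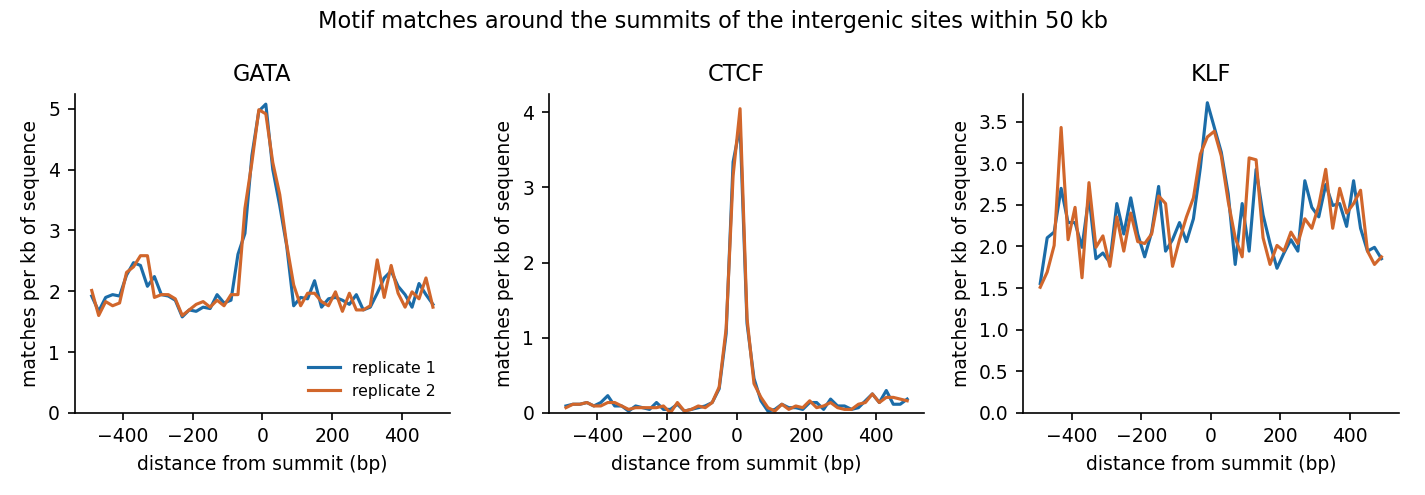
Motif matches per kb of sequence (y axis) by distance from the summit in bp (x axis, in bins of 20 bp) over the 2187 intergenic sites within 50 kb, replicate 1 in blue and replicate 2 in orange. GATA and CTCF curves peak in the bins at the summit, at 5.08 and 3.82 matches per kb in replicate 1, and KLF matches are spread more evenly.

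The sites with GATA letters and those with CTCF letters were largely separate and differed in width. In replicate 1, GATA without CTCF was seen at 825 sites, CTCF without GATA at 365, both at 74 and neither at 923. In replicate 2 these numbers were 820, 369, 79 and 919. Sites with GATA alone had a median width of 595 bp in replicate 1 and 591 bp in replicate 2, those with CTCF alone 424 bp and 429 bp, those with both 420.5 bp and 430.0 bp, and those with neither 500 bp and 508 bp. Sites with CTCF letters were thus narrower in both replicates, with or without GATA letters. Median enrichment differed less, with 7.14 and 7.35 for GATA alone and 7.44 and 7.55 for CTCF alone. Width was greater at sites with more GATA matches: the medians were 475 bp, 552 bp, 620.5 bp and 657 bp for 0, 1, 2 and at least 3 matches in replicate 1, and 476 bp, 543 bp, 642 bp and 676 bp in replicate 2.

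**Figure D4:**
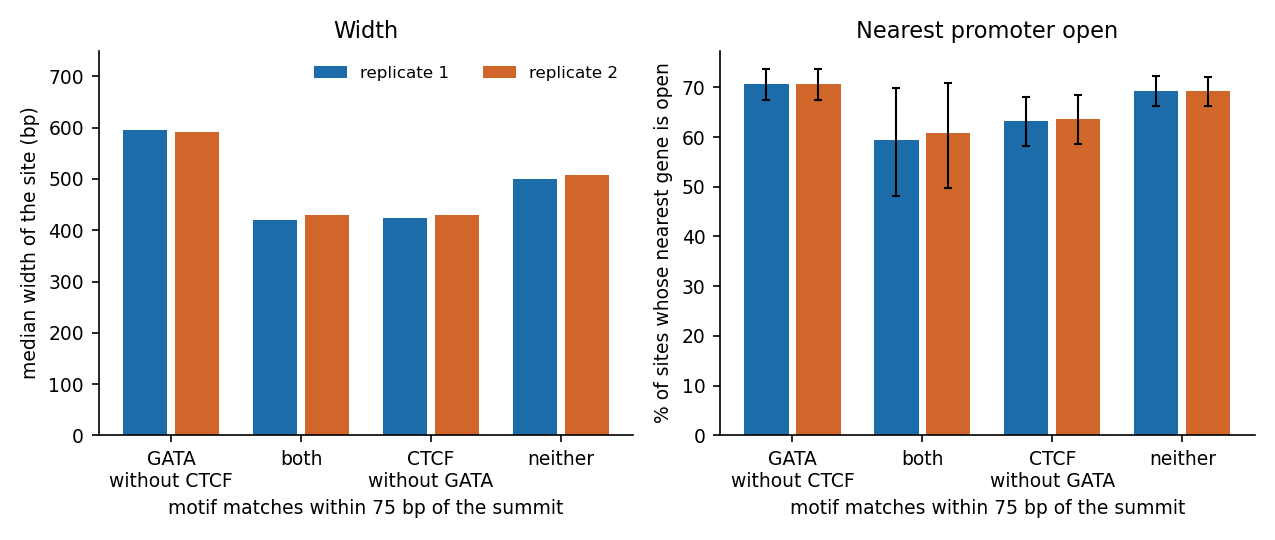
Median width in bp (left) and share of sites whose nearest gene has an open promoter (right, percent, with 95% Wilson intervals) for intergenic sites within 50 kb grouped by GATA and CTCF matches at the summit; blue bars are replicate 1 and orange bars replicate 2. Sites with CTCF matches were narrower, with medians between 420.5 bp and 430.0 bp, against 595 bp and 591 bp for GATA matches alone.

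The nearest gene usually had an open promoter. This held for 1498 of the 2187 sites (68.5%, Wilson interval 66.5% to 70.4%), against 55.1% (50.2% to 59.95%) for intergenic sites beyond 50 kb, 76.3% (74.8% to 77.7%) for intron sites and 72.4% (68.3% to 76.2%) for exon sites. An interval that reached within 1 kb of a TSS counted as opening the gene even when it was the site's own. The share was 82.9% at 1 to 2 kb from the coding TSS and 66.9% at 2 to 5 kb. It was 67.4% when sites had to lie over 2 kb from any TSS. Counted by gene, 1607 protein-coding genes were nearest to at least 1 site, 1215 of them to 1 site and 392 to several. Of the 1607 genes, 67.3% were open (65.0% to 69.6%), against 39.7% (39.0% to 40.4%) of the 20148 genes nearest to none. By number of sites, 65.7% of genes with 1 site were open (63.0% to 68.3%), 74.4% with 2 (68.6% to 79.4%), 69.2% with 3 (59.9% to 77.1%) and 68.6% with at least 4 (52.0% to 81.4%), with no steady order. Sites with GATA letters alone had an open nearest gene in 70.7% and 70.6%, those with CTCF letters alone in 63.3% and 63.7%, with Wilson intervals that overlap in both replicates.

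The genes with most sites were led by Wdr26, which encodes a subunit of a ubiquitin ligase complex. Its 7 sites all lay upstream, between 4.51 and 49.1 kb from its TSS, with enrichments between 3.61 and 7.93 in replicate 1 and between 3.99 and 8.06 in replicate 2. Ptma, which encodes the chromatin-associated acidic protein prothymosin alpha, had 6 sites, 3 of them with CTCF letters. Slc16a1, which encodes a carrier of lactate and pyruvate, had 5 sites, 3 with GATA letters and 2 with the composite. Rps6ka1 (a ribosomal S6 kinase), Pofut2 (an O-fucosyltransferase), Dennd4a (a regulator of Rab GTPases) and Zfp217 (a zinc finger protein) also had 5 sites each and an open promoter. Tbx19, a T-box factor known for its role in the pituitary, had 5 sites with its own promoter not open. Its sites, all downstream, had enrichments between 7.18 and 9.13 in replicate 1 and between 7.92 and 9.96 in replicate 2, and 4 of the 5 had GATA letters. In all, 35 genes had 4 or more sites, Ammecr1 and Tom1l1 among those with 4. A site counts for the nearest TSS only, so a gene in a wide intergenic interval can collect more.

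In all 5 erythroid gene lists the share of genes with a site was above the 7.39% of all genes and the 11.9% of the 9080 open genes. Most listed genes were open, except in the globin list, with 4 of 10, near the 41.7% of all protein-coding genes. Genes with a site were 9 of 27 transcription regulators (33.3%, Wilson interval 18.6% to 52.2%), 7 of 24 heme and iron genes (29.2%, 14.9% to 49.2%), 7 of 25 membrane and transport genes (28.0%, 14.3% to 47.6%), 7 of 22 genes of receptors, survival and maturation (31.8%, 16.4% to 52.7%) and 6 of 10 globin genes (31.3% to 83.2%). Together these were 36 genes with 52 sites. GATA letters stood at 26 of the 52 in replicate 1 and 48.1% in replicate 2, against 40.9% and 40.9% of the other 2135 sites, and CTCF letters at 9.62% in each replicate, against 20.3% and 20.7%. The Wilson interval of the GATA share in replicate 1 (36.9% to 63.1%) includes the value of the other sites. That of the CTCF share (4.18% to 20.6%) includes their value in replicate 1 and lies just below it in replicate 2.

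Sites at erythroid genes were on the whole low in fold enrichment. Their median enrichment was 5.95 and 5.84, against 7.33 and 7.46 for sites at other genes. It was lowest for globin genes, with 4.001 and 3.81 over 9 sites, and was 4.65 and 5.11 for membrane and transport genes, 5.05 and 5.55 for receptors, survival and maturation, 7.44 and 6.43 for heme and iron genes and 7.85 and 8.14 for transcription regulators. A low fold did not always go with low significance. Over the 9 globin sites, the deposited −log10 p ran between 15.8 and 69.2 in replicate 1. In replicate 2 it ran between 14.0 and 71.1. The medians of all sites were 32.3 and 35.1. Among the globin sites, those upstream of Hbb-y had the highest values and those at Hba-a2 the lowest. The 5 sites of lowest rank by fold in the whole set lay at Hba-a2 (2 sites), Slc4a1, Tmcc2 and Cldn13. The sites at Hba-a2, an adult alpha globin gene, had enrichments of 2.48 and 2.35 at 2.78 kb upstream and of 2.57 and 2.35 at 1.45 kb downstream, and the upstream window has a near-identical copy in the genome. The site 6.93 kb upstream of Slc4a1, which encodes the anion exchanger band 3, had 2.56 and 2.48. Of the 100 sites of lowest rank, 10 lay at genes of the erythroid lists (Wilson interval 5.52% to 17.4%), against 2.38% (1.82% to 3.10%) of all sites, a count chosen after its values were seen. Of the 100 sites of highest rank, 4 lay at such genes (1.57% to 9.84%). The sources used here do not give the background of each fold, and its part in these values was not tested. The 100 sites of lowest rank also lay closer to genes, at a median of 3.93 kb, against 10.9 kb for all sites.

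**Figure D5:**
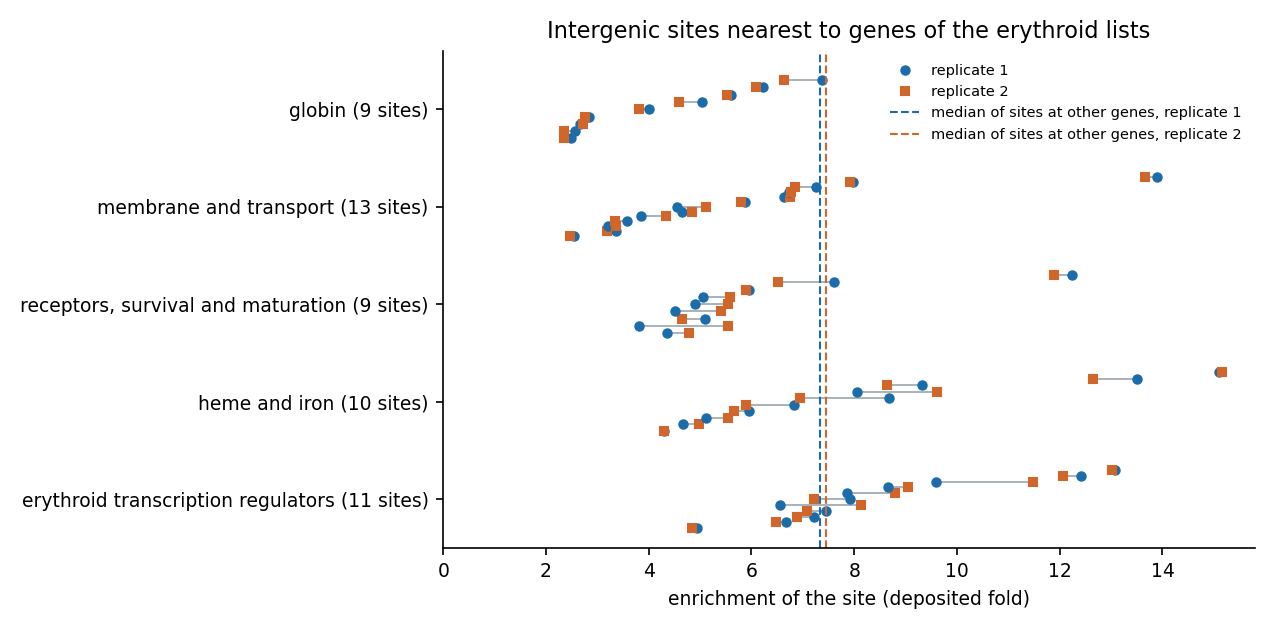
Deposited fold enrichment (x axis) of the 52 intergenic sites nearest to genes of the 5 erythroid lists, 1 row per site, with 1 point for replicate 1 (circles) and 1 for replicate 2 (squares), joined by a grey line. Dashed lines are the medians of the 2135 sites at other genes, 7.33 in replicate 1 and 7.46 in replicate 2. Of the 9 globin sites, 8 lie left of both lines in both replicates, and the strongest sites belong to Slc11a2, Kel, Tfrc and Myb.

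Strong sites stood far upstream of several erythroid genes. Myb, a regulator that holds erythroid progenitors in the proliferating state, had a site 35.8 kb upstream with an enrichment of 13.1 and 13.0 (13.05 ± 0.036, SD, n = 2) and 2 GATA matches, while its own promoter was not open. Upstream enhancers of Myb that contact its promoter are known in mouse erythroid cells. Gata1 had 2 sites, 14.8 and 15.4 kb upstream, with 12.4 and 12.1 at the nearer one and 8.67 and 9.05 at the farther one, which carried the composite. The nearer summit fell in repeat-masked sequence. Jak2, the kinase that carries the erythropoietin signal, had a site 48.3 kb upstream with 12.2 and 11.9, in which GATA matches on the minus strand overlap and CTCF letters also stand.

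Iron and heme genes included the strongest sites of the lists. Slc11a2, the iron transporter DMT1, had a site 18.7 kb upstream with 15.1 and 15.2, and Tfrc, the transferrin receptor, had a site 10.9 kb upstream with 13.5 and 12.6. Neither window held GATA letters, and each held 1 KLF match. Alas2, the first enzyme of heme synthesis in red cells, had sites 31.2 and 36.5 kb upstream, with 9.33 and 8.64 at the nearer and 8.69 and 6.95 at the farther, and its promoter was not open. Hmox1, which degrades heme and is known to be repressed by BACH1 and induced by NRF2 through elements of the NFE2 type, had a site 9.60 kb upstream with 8.06 and 9.60. Its window, printed above, holds 3 NFE2 and AP-1 matches, each of them TGAGTCA, and its promoter was not open. Cpox, a later enzyme of heme synthesis, had 3 sites upstream with enrichments between 4.67 and 6.82 in replicate 1 and between 4.97 and 5.90 in replicate 2. RefSeq places the Slc11a2 site, both Alas2 sites, both Gata1 sites and 2 of the 3 Cpox sites inside a gene, though GENCODE M21 has none there, and the other Cpox site within 1 kb of a start.

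Among membrane genes, the strongest site lay 24.1 kb upstream of Kel, a blood group glycoprotein, with 13.9 and 13.7 and CTCF letters. Aqp1, the water channel, had 3 sites with enrichments between 3.58 and 4.54 in replicate 1 and between 3.35 and 5.11 in replicate 2, of which 2 carried the composite. In the list of receptors, survival and maturation, Car2, a carbonic anhydrase, had 2 sites, 7.19 and 8.49 kb upstream. Enrichment was 5.96 and 5.89 at the nearer and 5.10 and 4.64 at the farther.

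In the globin loci, 9 sites on chromosome 7 and 1 on chromosome 11 fell in elements that RefSeq annotates. Of the locus control region, 5'HS1 had enrichments of 6.22 and 6.08, 5'HS2 of 5.05 and 4.595, and 5'HS3 of 5.60 and 5.52. The windows differ in their letters: 5'HS1 has the composite and 1 NFE2 match, 5'HS2 an NFE2 match near the edge of the window and 2 KLF matches but no GATA match, and 5'HS3 has 4 GATA matches. Beyond them, 5'HS4 had 6.54 and 6.22 and 5'HS6 had 5.39 and 5.84, both with the composite and both nearest to the olfactory receptor gene Olfr66. The site 3'HS1 had 7.61 and 6.13 and the CTCF letters shown above, with 4 KLF matches. Upstream of the locus control region, 2 annotated sites nearest to Olfr65 had 8.27 and 9.01, and 6.93 and 7.31. The farthest, nearest to Olfr633, had 10.98 and 10.6 and CTCF letters inside a CTCF-binding site of RefSeq. The summit of the Olfr65 site at HS-62.5 also fell in a CTCF-binding site of RefSeq. On chromosome 11, the alpha globin element R4, 1.46 kb upstream of Nprl3, had 4.51 and 5.40 and 2 GATA matches.

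Outside the globin loci, RefSeq annotated few of the sites. Functional elements covered 25 summits in all, 20 of them in an enhancer. Beside the 10 globin sites, 14 lay in VISTA enhancers, which were tested in mouse embryos. Of those, 6 were active in heart, and others in tissues such as brain, limb, branchial arch and, at Epb41, blood vessels. How often VISTA enhancers in general are active in heart was not examined. The remaining site, picked out after its values were seen, 13.9 kb upstream of the antiproliferative gene Btg2 with 7.34 and 7.06, lay in a module tested as an erythroid enhancer in K562 cells and held 1 GATA and 3 KLF matches. RefSeq places it inside a gene. In the RefSeq gene annotation of the same assembly, 252 of the 2187 sites lay inside a gene and 198 within 1 kb of a start, so 1737 were intergenic by both annotations.

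Several of the strongest sites had a sequence that occurs elsewhere in the genome. The site 13.0 kb upstream of Abcb11 ranked first in both lists, with an enrichment of 38.5 and 39.0 and a width of 256 bp and 255 bp. Its window matched the mitochondrial genome over 129 bp at 100% identity, and 3 sites in all matched mitochondrial sequence. Another near-identical copy in the reference genome (at least 90% identity over at least 80% of the window), the mitochondrial one included, was found for 73 sites (3.34%), and for 4 of the 10 of best rank, those at Abcb11, Gm12394, Igf2bp3 and Trim43b. The sources used here do not say how reads of repeated sequence were placed, and their part in these values was not tested. Alternate strain and patch sequences, in which 117 further sites had their only match, were not counted as copies. The 73 sites with a copy had median enrichments of 7.37 and 7.51, against 7.29 and 7.43 for the 2114 sites without one, and their nearest gene was open in 47.9%, against 69.2%.

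Of the 10 sites of best rank, the other 6 had no such copy. They lay upstream of Pak3 (26.2 and 26.2), Sfpq (20.7 and 20.7), Ptprj (16.96 and 17.96), Prdm1 (17.1 and 17.7) and Nsd1 (16.5 and 17.5) and downstream of Rpf2 (16.9 and 18.4). The site 5.55 kb upstream of Sfpq, which encodes a splicing factor, held CTCF letters, and the site 31.7 kb upstream of Ptprj, a receptor phosphatase, held 2 NFE2 and AP-1 matches. None of the 6 held GATA letters. RefSeq has a start within 1 kb of the Prdm1, Gm12394 and Trim43b sites. The strongest site with the composite, 11.4 kb downstream of Rhobtb3, had 14.8 and 16.7, and the strongest with at least 3 GATA matches, 18.5 kb upstream of Frs2, had 12.2 and 14.1.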

How the data were processed

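ATAC-seq peaks were used for 1 group of 2 replicates. Per the labels, the deposited lists are in mm10, and the file listing says that replicate lists were made from each replicate's own alignments. The sources used here do not name the aligner, the caller or any settings. In the deposited lists, enrichment is a fold of the summit over background, and significance is the −log10 p or q of the summit. Neither is stated to be comparable between lists, and depth is unknown, so no count test was possible.

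Distinct intervals on chromosomes 1 to 19 and X were read, each placed by its strongest summit in GENCODE M21 and GRCm38.p6 (no interval ended past its chromosome). Where several replicate 2 intervals overlapped a site, the strongest was used. Motif letters were sought within 75 bp of the summit and 1000 bp to each side where no peak is listed. Copies were found with BLAST+ 2.17.0 in the chromosomes and the C57BL/6J unplaced sequences, without 173 alternate strain and patch sequences, and otherwise Python 3.11.15, pandas 2.3.3, SciPy 1.17.1 and pysam 0.24.0 were used. Motif, overlap and class steps were tested on simulated data.

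Named sites were the 10 of best and 5 of worst mean rank, the best site of the 4 top genes per erythroid list, the 10 genes with most sites, sites at the limits and in the globin loci, and the best site per main motif. Sites on 1 chromosome were counted but not named. Other names, among them Aqp1, Cpox, Btg2, Klrb1c, Gp9 and Olfr633, were picked once their values were known. The members, gene lists and motifs were chosen with earlier results of these data known. Alternatives changed the overlap, the roles of the replicates, the limits, the annotation, the list, repeats, the motif window and the definition of an open gene, and left out each replicate. The values of 1 gene that the naming rule selects are not reported here.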

Additional observations from a re-analysis of the deposited data

How the results depend on the processing

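The number of sites stayed within 1.5 times of 2187 under every setting run, between 1737 without sites in RefSeq genes or within 1 kb of RefSeq starts and 2777 in replicate 2 alone. Using 1 replicate alone gave 2570 to 2777 sites, a median enrichment of 7.01 to 7.03, a median width of 458 to 479 bp, a GATA share of 37.7% to 39.0%, a CTCF share of 22.0% to 24.2% and an open nearest gene in 66.5% to 66.7%. These lists include intervals with no partner, which had lower enrichment. Asking for over 2 kb from any TSS gave a median enrichment of 7.49, a width of 533 bp and a GATA share of 41.5%. At most 25 kb gave 7.22, 511 bp, a GATA share of 40.5% and a CTCF share of 21.2%. Coding gene bodies only gave 518.5 bp, 41.3% and 19.9%. Leaving out sites like mitochondrial DNA or with a masked summit gave 527.5 bp, 41.6% and 19.7%. The GATA share was 41.2% when at least 50% of the interval had to be covered, 40.8% with the replicates swapped and 41.1% in the conservative list. A motif window of 150 bp to each side gave a GATA share of 53.3% and a CTCF share of 21.2%, and 25 bp to each side gave 20.99% and 14.4%. A wider window holds more letters by its construction, and the cause of the other shifts was not tested. The CTCF share changed less than the GATA share when the window was widened. With open promoters taken from the less strict lists, 74.2% of sites had an open nearest gene. Settings chosen after seeing the data left out sites with another copy (GATA share 41.3%), or sites in RefSeq genes or at RefSeq starts (508.5 bp, 42.4% and 21.2%). No paired analysis was possible because there was 1 group. Depth is unknown, 2 replicates set the precision, and the motif shares rest on short consensus letters.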
